A study of Mus musculus with 3 samples.

Results

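Vessel-rich spots of the Day 7 wound were the 72 spots, of 477 kept spots on that slide, with the highest share of UMIs from 8 endothelial genes. A spot is a small printed area of a Visium slide that captures the RNA of the tissue above it, and it can hold several cells of different types. The kept spots were those that the authors had marked as tissue and that held 2000 or more UMIs (unique molecular identifiers, each standing for 1 captured RNA molecule). The score of a spot was its summed UMIs of Pecam1, Cdh5, Kdr, Egfl7, Esam, Cldn5, Emcn and Plvap divided by its total, and the top 15% by this score were taken. The remaining 405 kept spots of the same section are called the other spots.

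The series held 3 slides of wounded skin from C57BL/6J mice, without any further treatment named, at Day 3, Day 7 and Day 14, with 1 section per day and 1910 marked spots in all. Per the study's methods the mice were adult males with full-thickness excisional wounds of the back, and which animal gave which section is not stated. With 1 section per day there was no replicate, so no test was possible between days or between groups of spots, and the spots of a section are not replicates of each other. Intervals given with a value are 95% intervals for counting error only, and a pooled value could also move with the number of cells of a type or with the RNA of each cell, which cannot be told apart.

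Blood vessels are lined by endothelial cells, which are held together by VE-cadherin and tight junctions, rest on a basement membrane of type IV collagen and laminin, and are wrapped by pericytes or, in larger vessels, by smooth muscle. In a healing skin wound, new vessels sprout from existing ones into granulation tissue, the loose, cell-rich connective tissue that fills the defect. Sprouting endothelial cells release platelet-derived growth factor B, which attracts pericytes to the new vessel.

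The score rested on few molecules. A vessel-rich spot held 2 to 56 UMIs of the 8 genes with a median of 8, and 18 of the 72 spots held 5 or fewer. The other spots held a median of 3 score UMIs and a highest count of 27, and 40 of the 405 held none. Expressed as CPM (counts per 1e+06 UMIs), the score of vessel-rich spots ran from 932.4 through a median of 1121 to 2496, and the highest score among the other spots was 931.5, so the spots on both sides of the limit had almost the same score. The 2 groups had similar depth, with a median of 7250 UMIs in vessel-rich spots (2132 to 26166) and 7854 in the other spots (2112 to 33757). Vessel-rich spots held a median of 5 of the 8 score genes, 56 of them held 4 or more, and 6 held all 8. Since the score chose these spots, their excess of score genes is a description and not a finding. The name vessel-rich stands for a high score only. Outside region 2, described further on, score genes stood at log2 0.12 (-0.24 to 0.46) when spots were chosen on 1 random part of the UMIs and read in the other.

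**Figure D1:**
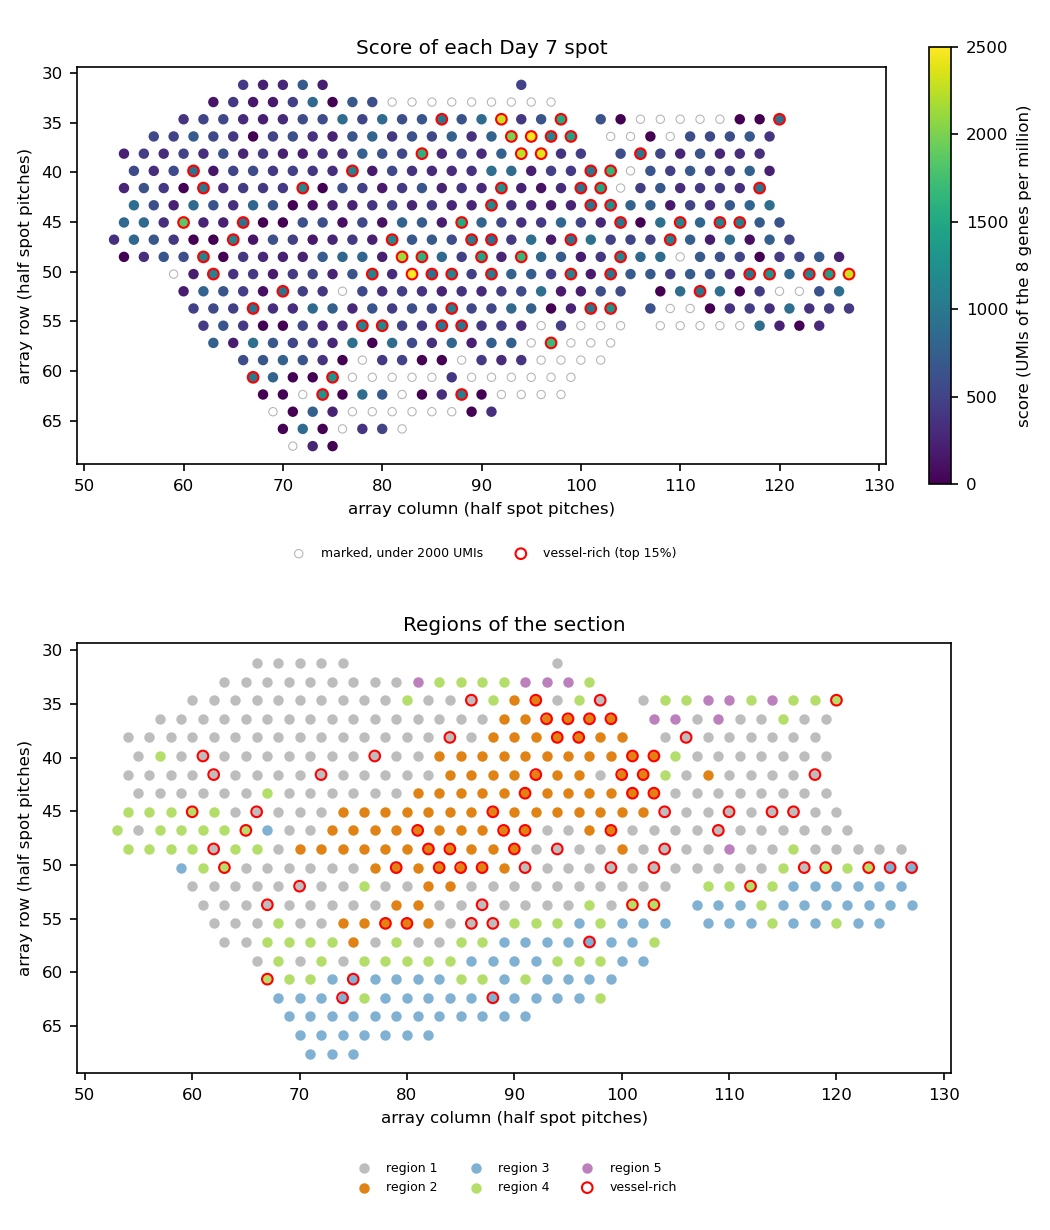
Day 7 section with 1 circle per marked spot, placed by array row and column as given by the slide layout. The upper panel colours the 477 kept spots by score in CPM, with open grey circles for marked spots under 2000 UMIs, and the lower panel colours the marked spots by region, with vessel-rich spots ringed in red in both. Of the 72 ringed spots, 29 lie in region 2 and 43 are scattered over regions 1, 3 and 4.

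The 8 score genes were each about 2.5 to 3.6 times as high in vessel-rich spots as in the other spots by construction. Pecam1, an adhesion molecule of endothelial junctions, stood at 196 CPM (here and from here on with the score genes left out of the total) against 78.0 CPM. Emcn, a mucin of the capillary and venous surface, stood at 87.6 against 24.1 CPM. To obtain a value that had not chosen the spots, the score was rebuilt 8 times without 1 of its genes, and the gene left out was read in the spots chosen by the other 7. Under this reading every score gene remained higher in the chosen spots. Emcn had the highest ratio, 2.65-fold (log2 1.41, interval 0.88 to 1.92), and Plvap, which builds the diaphragms of fenestrae, followed with 2.49-fold (log2 1.31, 0.98 to 1.64). Cldn5, the tight junction protein, had the lowest, 1.47-fold (log2 0.56, 0.13 to 0.97). Between 52 and 63 of the 72 spots were chosen again when a gene was left out.

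Pooled over the section, other endothelial genes were higher in vessel-rich spots. Their summed log2 ratio was 0.85 (0.75 to 0.94) in region 2, described further on, and 0.14 (0.01 to 0.27) outside it. Of 47 endothelial genes outside the score, 40 had 50 or more UMIs over the kept spots; 22 of these were at least 1.5-fold higher in vessel-rich spots and none was 1.5-fold lower, and 38 of the 40 had a ratio above 1. Over all 9379 genes with 50 or more UMIs, 6.24% were at least 1.5-fold higher and 9.25% at least 1.5-fold lower. The median log2 ratio was 0.65 for the 40 genes and 0.01 for all genes. Summed over the list, vessel-rich spots held 3001 CPM (2870 to 3136) and the other spots 1998 CPM, a log2 ratio of 0.59 (0.51 to 0.66). The spots nevertheless overlapped widely on this sum, which ran from 417 through 2558 to 6133 CPM in vessel-rich spots and from 0 through 2022 to 5074 CPM in the other spots. Of the 72 vessel-rich spots, 49 lay above the median of the other spots. When every spot counted equally (the mean of the spots' CPM), 12 of the 40 genes were at least 1.5-fold higher.

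Among receptors and adhesion molecules, Tie1, a receptor tyrosine kinase of endothelium, led with 69.5 against 26.8 CPM (log2 1.37, 0.84 to 1.89). Adgrl4, an adhesion G protein-coupled receptor, followed at 1.32 (0.65 to 1.96). Notch4, the endothelial Notch receptor, stood at 1.07 (0.32 to 1.76) and Mcam, an adhesion molecule shared by endothelium and pericytes, at 1.04 (0.75 to 1.31). The lowest of the same list were Cd34 and Acvrl1. Cd34, which is also expressed by skin fibroblasts, had a log2 ratio of 0.14 (-0.17 to 0.44), and Acvrl1, a type I receptor of bone morphogenetic proteins, had -0.20 (-0.77 to 0.33). Both intervals included 0. With every spot thinned to 2000 UMIs, Notch4 stood at -0.41.

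Among transcription factors, Epas1, a hypoxia-inducible factor abundant in endothelium, had 141 against 76.1 CPM (log2 0.89, 0.53 to 1.23). Bcl6b, Sox17 and Sox7 had log2 ratios of 0.77, 0.76 and 0.70, but each rested on 14 or 15 UMIs in vessel-rich spots and its interval included 0, and Sox17 and Sox7 stood at -0.97 and -0.092 with every spot thinned to 2000 UMIs. Fli1 (0.33) and Lyl1 (-0.12), both also expressed by blood cells, were the lowest of the list. Among the remaining endothelial genes, Mmrn2, an endothelial matrix protein, led at 1.17 (0.62 to 1.70), Ecscr stood at 0.88 (0.40 to 1.34), and Cav1, the caveolar protein also made by fat and muscle cells, stood at 0.18 (-0.05 to 0.40).

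**Figure D2:**
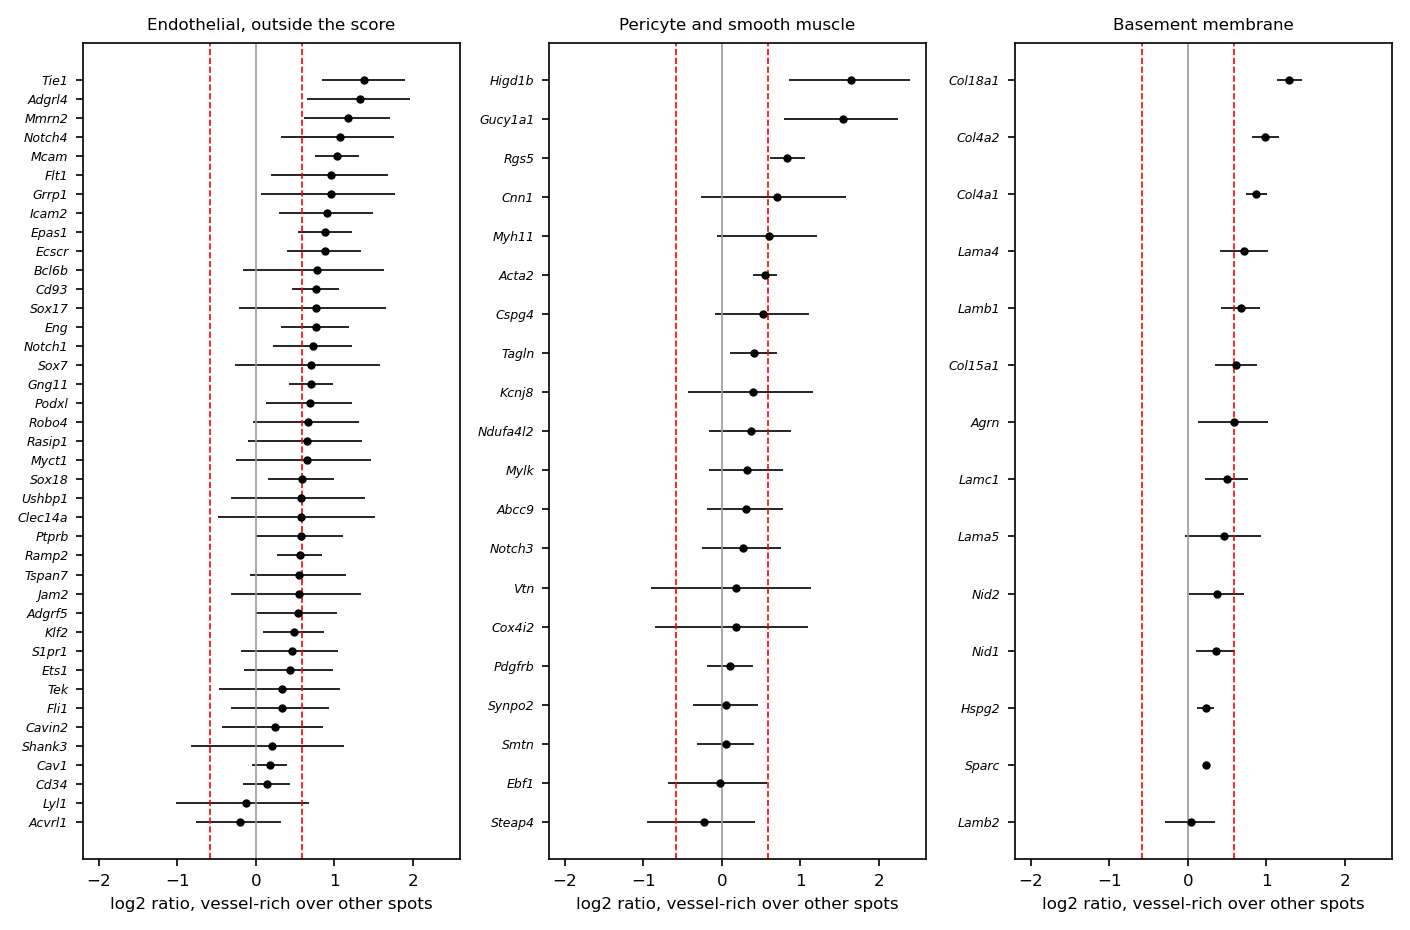
Log2 ratio of pooled CPM, vessel-rich over other spots of Day 7, for each gene with 50 or more UMIs of 3 lists. Points are ratios, bars are 95% counting intervals, and dashed red lines mark 1.5-fold in either direction; 22 of 40 endothelial, 5 of 20 pericyte and smooth muscle and 7 of 14 basement membrane genes lie right of the right-hand dashed line.

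Basement membrane genes formed the most abundant group that was higher. All 14 listed genes had a ratio above 1 and 7 were at least 1.5-fold higher, beside 6.24% of all genes. The count of 7 became 4 when ratios were taken within the 5 regions described further on. Col18a1, the vascular basement membrane collagen from which endostatin is cut, had 703 CPM (465 UMIs) in vessel-rich spots and 286 CPM in the other spots, a log2 ratio of 1.29 (1.13 to 1.45). By spot, it ran from 0 through a median of 433 to 2222 CPM in vessel-rich spots and from 0 through 216 to 2455 CPM in the other spots, so the medians differed while the ranges overlapped, and 54 of 72 vessel-rich spots lay above the median of the others. Col4a2 and Col4a1, the 2 chains that form the common type IV collagen of basement membranes, stood at 0.99 (0.82 to 1.15) and 0.87 (0.74 to 1.01). Lama4, the laminin chain of vessel walls, stood at 0.72 (0.41 to 1.02). Sparc, which fibroblasts also make in quantity, stood at 0.23 (0.19 to 0.26) and Lamb2 at 0.04 (-0.29 to 0.35).

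Col4a1 and Col4a2 lie head to head on mouse chromosome 8 and were close to each other in ratio, so the sequence around their start sites is shown. Their 5′ ends overlap, as Col4a1 on the minus strand reaches base 11312826 and Col4a2 on the plus strand begins at base 11312805. The printed window up to base 11312826 therefore also lies within Col4a1. In the RefSeq promoter table for GRCm38.p6, which holds 250 bases before and 50 bases after each start, the windows of the 2 genes share 78 bases, and the start sites are 21 bases apart on opposite strands. The window of Col4a2 (chr8:11312555-11312854, plus strand) is printed 5′ to 3′ with the shared bases in capitals. Its G and C content was 73.7%, against a median of 52.7% over 32851 promoter windows of the table.
Col4a2: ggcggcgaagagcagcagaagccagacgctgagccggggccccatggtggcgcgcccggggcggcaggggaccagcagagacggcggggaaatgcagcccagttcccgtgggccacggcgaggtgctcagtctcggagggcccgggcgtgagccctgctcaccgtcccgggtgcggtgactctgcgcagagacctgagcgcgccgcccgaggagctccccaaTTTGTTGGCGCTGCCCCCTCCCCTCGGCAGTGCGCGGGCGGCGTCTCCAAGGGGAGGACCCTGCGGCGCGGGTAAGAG

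Genes of pericytes and smooth muscle were higher as a sum, at 2150 CPM (2040 to 2265) against 1583 CPM, a log2 ratio of 0.44 (0.36 to 0.53). Of 20 genes with 50 or more UMIs, 5 were at least 1.5-fold higher and none 1.5-fold lower, beside 6.24% and 9.25% of all genes. The 3 highest pericyte genes were Higd1b, a mitochondrial protein typical of pericytes, at 1.64 (0.85 to 2.39), Gucy1a1, a subunit of the nitric oxide receptor guanylate cyclase, at 1.54 (0.79 to 2.25), and Rgs5, a regulator of G protein signalling, at 0.83 (0.61 to 1.06). Rgs5 was the most abundant of these, with 331 against 186 CPM. The lowest were Ebf1 (-0.03, -0.69 to 0.58) and Steap4 (-0.23, -0.95 to 0.42), which other mesenchymal cells also express. Acta2, the actin of smooth muscle and of myofibroblasts, had 656 against 449 CPM (log2 0.55, 0.39 to 0.70). Cnn1 (0.70, -0.27 to 1.59) and Myh11 (0.60, -0.06 to 1.22), which mark contractile smooth muscle more closely, rested on 14 and 28 UMIs, and Myh11 stood at -0.064 when spots were chosen on 1 random part of the UMIs and read in the other.

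Over all genes outside the score, the 15 that led by the lower bound of the interval held, beside genes already described, Foxs1, a forkhead transcription factor, with 27 UMIs in vessel-rich spots and 37 in the other spots (log2 2.03, 1.25 to 2.78). Igfbp7, a secreted protein stored in vessel walls, was the most abundant of the 15, with 1922 against 1008 CPM (log2 0.93, 0.84 to 1.02). Tm4sf1, a small membrane protein of endothelium, stood at 1.16 (0.80 to 1.51), Ctla2a, a protease inhibitor, at 1.07 (0.74 to 1.38), and Elk3, an ETS transcription factor, at 1.07 (0.73 to 1.40). Piezo2, a mechanically gated ion channel, stood at 1.59 (0.75 to 2.39) on 21 UMIs in 13 spots.

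Over the whole section, summed vein genes (log2 0.66, 0.46 to 0.85) and artery genes (0.46, 0.24 to 0.67) were both higher. In region 2, described further on, they stood at 0.82 (0.57 to 1.06) and 0.59 (0.30 to 0.88). Outside it they stood at 0.04 (-0.36 to 0.42) and 0.19 (-0.21 to 0.57). With spots chosen on 1 random part of the UMIs and read in the other, vein genes gave 0.74, with an interval above 0. Artery genes then gave 0.18 (-0.17 to 0.52), an interval that included 0. Of 7 vein genes, 3 were at least 1.5-fold higher: Vwf, the von Willebrand factor (1.10, 0.57 to 1.60), Ackr1, a chemokine-binding receptor of venules (0.93, -0.02 to 1.80), and Lrg1 (0.87, 0.49 to 1.23). Icam1 (-0.08) and Vcam1 (0.04), adhesion molecules that inflamed tissue also makes outside vessels, showed no difference beyond counting error. Of 5 artery genes, Gja4, a connexin of arterial endothelium (1.08, 0.51 to 1.64), and Jag1, a Notch ligand (0.69, 0.10 to 1.24), were at least 1.5-fold higher. Over all genes, 6.24% were at least 1.5-fold higher. Fbln5, an elastic fibre protein, stood at 0.03 (-0.41 to 0.45).

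Lymphatic genes gave a divided picture. Flt4, the receptor for the lymphatic growth factor VEGF-C, which sprouting blood endothelium also carries, stood at 1.48 (0.74 to 2.19), and Mmrn1 at 1.10 (0.28 to 1.87). Ccl21a, a chemokine of lymphatic endothelium, had 361 against 175 CPM (log2 1.04, 0.82 to 1.26). The symbol has 2 identifiers in the files, only ENSMUSG00000094686 held UMIs, and reads of its near-identical copies may be counted there. Because of the 2 identifiers, Ccl21a was left out of the lymphatic sums given further on. Pdpn, which fibroblasts and keratinocytes share with lymphatic vessels, stood at -0.22 (-0.73 to 0.26). Prox1, the transcription factor that defines lymphatic endothelium, had 7 UMIs in vessel-rich spots and 11 in the others (log2 1.83, 0.22 to 3.33), and Lyve1, a hyaluronan receptor, had 2 and 14, both too few to enter the counts.

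Among genes of sprouting, Aplnr, the apelin receptor, had 102 UMIs in vessel-rich spots and a log2 ratio of 0.68, and its ligand Apln had 18 UMIs and 0.72. Angpt2 stood at -0.10 (-1.31 to 0.93) on 9 UMIs. Of the 13 vessel growth ligands with 50 or more UMIs, 3 were at least 1.5-fold higher and 1 lower, beside 6.24% and 9.25% of all genes. The highest was Pdgfb, the signal by which endothelium attracts pericytes, with 72.5 against 33.8 CPM (log2 1.10, 0.59 to 1.59). Vegfa, the main growth factor for endothelium, stood at -0.17 (-0.74 to 0.37), and the 11 hypoxia-response genes held none past 1.5-fold in either direction. Vegfd, a lymphatic growth factor, stood at -1.44 (-2.93 to -0.26), with 6 UMIs in vessel-rich spots and 91 in the others. Genes of capillary lipid handling, most of which fat cells also express, had a median log2 ratio of -0.05; within the list, Aqp1, the water channel of capillary endothelium, stood at 0.66 (0.36 to 0.96), and Lpl, the lipase made by fat and muscle cells, at -0.29 (-0.51 to -0.08).

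Markers of other cells moved little or were lower. Haemoglobin and other red cell genes had a summed log2 ratio of -0.07 (-0.27 to 0.13), macrophage genes 0.04 (-0.04 to 0.11) and fibroblast matrix genes 0.00 (-0.01 to 0.02), with no gene of these 3 lists past 1.5-fold. With spots chosen on 1 random part of the UMIs and read in the other, macrophage genes stood at -0.20 (-0.31 to -0.09). Granulation tissue genes stood at 0.26 (0.22 to 0.29), but at -0.07 (-0.12 to -0.03) within region 2, a part of the section described further on, and at -0.02 (-0.09 to 0.06) outside it. The sign in region 2 was not kept with the UMIs in 2 parts, where granulation tissue genes gave 0.07 (0.01 to 0.14) there and -0.12 (-0.22 to -0.02) outside. Over the whole section, muscle genes (-0.37, -0.39 to -0.35) and epidermis genes (-0.49, -0.55 to -0.43) were lower. So were sebaceous gland and hair genes (-0.41, -0.49 to -0.32) and adipocyte genes (-0.31, -0.38 to -0.24). In region 2 and outside it, adipocyte genes stood at -0.02 (-0.13 to 0.10) and 0.07 (-0.02 to 0.16). Sebaceous gland and hair genes stood at -0.07 (-0.21 to 0.07) and -0.04 (-0.16 to 0.08). Muscle genes gave 0.02 (-0.01 to 0.06) and 0.04 (0.02 to 0.07), and epidermis genes 0.19 (0.09 to 0.29) and -0.19 (-0.27 to -0.11). Of the 10 genes that led among the lower ones, Krt77, a keratin, had 414 against 772 CPM (log2 -0.90, -1.08 to -0.72) and Elovl4, which elongates very long fatty acids, -1.01 (-1.30 to -0.74). Myh8, the perinatal myosin heavy chain, had 22.7 against 79.6 CPM (log2 -1.81, -2.67 to -1.07), and Myl4, an embryonic myosin light chain, 86.1 against 209 CPM (-1.28, -1.69 to -0.89). Mymx, which drives fusion of muscle precursors, had 1 UMI in vessel-rich spots and 58 in the others (log2 -3.38, -8.71 to -0.84). AI661453 had none against 57, which at 3 counts for a count of 0 is at least 3.4-fold lower.

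The level of these groups followed the score unevenly. In the 24 spots of the top 5% by score, endothelial genes outside the score reached 3840 CPM (3605 to 4086). In the next 48 spots, which complete the vessel-rich group, they stood at 2460 CPM (2309 to 2618), against 2339 CPM (2220 to 2463) in the 72 spots just below the limit and 1864 CPM (1806 to 1923) in the lowest 50%. Pericyte and smooth muscle genes gave 2691, 1802, 1668 and 1551 CPM in the same order. The intervals of the 48 spots inside and the 72 spots outside the limit overlapped, and the upper 24 spots lay above both. These 24 spots also had the highest median depth of the bins, 11172 UMIs, and the part of depth in their level was not tested.

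**Figure D3:**
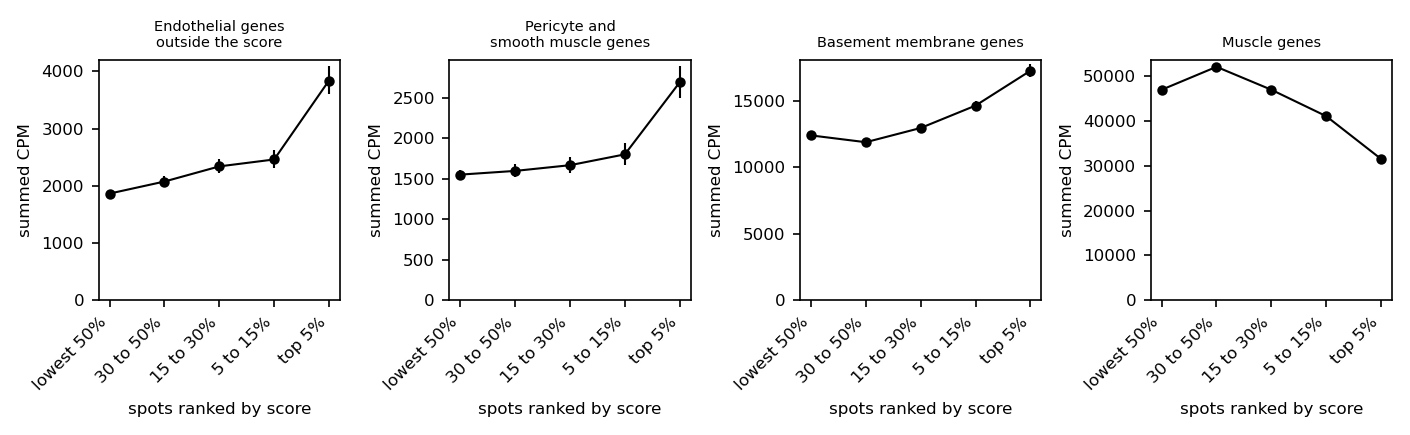
Summed CPM of 4 gene lists in the Day 7 kept spots, binned by rank of score (238, 95, 72, 48 and 24 spots from the lowest 50% to the top 5%). Points are pooled values and bars 95% counting intervals; the endothelial, pericyte and basement membrane lists are highest in the top 5%, and the muscle list is lowest there.

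Contacts between vessel-rich spots were counted. Of the 72 spots, 54 had at least 1 vessel-rich spot among their 6 neighbours. These were 27 of the 29 in region 2, described further on, and 27 of the 43 outside it. Of all kept neighbours of vessel-rich spots, 25.3% were vessel-rich, beside 15.1% of all kept spots and 27.9% of the kept spots of region 2. How many contacts these shares alone would give was not tested. There were 17 groups of 2 or more touching spots, the largest with 8, 7 and 6 spots. The endothelial genes outside the score were lower in the spots around them, at 2098 CPM (2032 to 2166) in the 198 adjacent spots, 1935 CPM (1856 to 2015) at 2 steps and 1848 CPM (1749 to 1952) at 3 or more steps. In depth below the upper edge of the marked tissue, vessel-rich spots spanned 0 to 18 rows with a median of 8, and the other spots had a median of 7. Their share was 22.4% (19 of 85 kept spots) at 9 to 11 rows and 8.33% (4 of 48) at 15 rows or more.

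The section was split into 5 regions by k-means with the genes of all lists left out, so that no listed vessel gene entered the split, although unlisted vessel genes such as Tm4sf1 could. Region 2, a central band of 104 spots, had the highest level of granulation tissue genes (13580 CPM, against 2513 to 7086 CPM in regions 1, 3 and 4) and the deepest spots, with a median of 14775 UMIs. It held 29 vessel-rich spots, 27.9% of its kept spots, beside 10.5% (27 of 258) in region 1, 12.5% (6 of 48) in region 3 and 14.9% (10 of 67) in region 4. Region 5 had no kept spot. The depth of region 2 moves with these shares. When spots were chosen on 1 random part of all UMIs, the shares were 20.2% in region 2, 11.6% in region 1, 14.6% in region 3 and 20.9% in region 4. When, in an alternative added after seeing the data, spots of 6000 or more UMIs were thinned to 6000 and chosen on a random part of these, 20 of 102 spots of region 2 (19.6%) and 25 of 196 outside it (12.8%) were chosen. Of the largest 3 groups of touching vessel-rich spots, with 8, 7 and 6 members, 7, 6 and 6 members lay in region 2. Vessel-rich spots of region 2 held 6 to 56 score UMIs with a median of 18, and those elsewhere held 2 to 21 with a median of 6.

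Endothelial and pericyte genes differed more within region 2 than outside it. Endothelial genes outside the score had a summed log2 ratio of 0.85 (0.75 to 0.94) between the 29 vessel-rich and the 75 other spots of that region, 30 of 40 genes were at least 1.5-fold higher, beside 13% of all genes, and none was lower. By spot, the sum ran from 1025 through 3124 to 6133 CPM in the vessel-rich spots and from 694 through 1877 to 4334 CPM in the others, and 28 of the 29 vessel-rich spots lay above the median of the others. The 43 vessel-rich spots outside region 2 gave 0.14 (0.01 to 0.27), with 5 of the 40 genes higher, beside 10% of all genes, and 6 lower, beside 17.9%. Their sum had a median of 2009 CPM, against 2042 CPM in the 330 other spots there, and 21 of 43 lay above that median. By region, the log2 ratio was 0.13 (-0.01 to 0.28) in region 1, 0.61 (0.05 to 1.13) in region 3 with 6 vessel-rich spots, and 0.01 (-0.38 to 0.38) in region 4. With spots chosen on 1 random part of the UMIs and read in the other, region 3 gave 0.55 (-0.16 to 1.21). Pericyte and smooth muscle genes stood at 0.54 (0.43 to 0.65) in region 2, with 9 of 20 genes higher, and at 0.04 (-0.12 to 0.19) outside it, with 3 of 20 higher. Of the 14 basement membrane genes, 7 were at least 1.5-fold higher in region 2 and none outside it, with median log2 ratios of 0.55 and 0.17. Their sums, in which abundant genes weigh most, had similar log2 ratios, 0.15 (0.11 to 0.19) and 0.11 (0.05 to 0.17). The sum in region 3 alone gave 0.44 (0.15 to 0.73). When spots were chosen on 1 random part of the UMIs and read in the other, the sum gave 0.15 (0.09 to 0.21) in region 2. It then gave 0.03 (-0.04 to 0.11) outside region 2 and 0.36 (-0.01 to 0.72) in region 3, intervals that both included 0.

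Named genes followed the same split. Rgs5 had a log2 ratio of 1.28 (0.99 to 1.58) in region 2 and -0.18 (-0.69 to 0.29) outside it. Col4a1 had 1.25 (1.07 to 1.43) and 0.17 (-0.09 to 0.43), and Col4a2 1.32 (1.10 to 1.54) and 0.16 (-0.20 to 0.50). Mcam had 1.43 (1.05 to 1.81) and 0.37 (-0.19 to 0.88), and Tm4sf1 1.05 (0.63 to 1.47) and -0.05 (-1.09 to 0.84). Foxs1 had 22 UMIs in the 29 vessel-rich spots and 9 in the 75 others of region 2, a log2 ratio of 2.80 (1.62 to 4.10), and 0.94 (-0.79 to 2.33) outside. Ccl21a went the other way, with 0.63 (0.32 to 0.94) in region 2 and 1.46 (1.13 to 1.78) outside, and Mmrn1 had 0.18 (-1.04 to 1.29) and 1.99 (0.78 to 3.08), the latter on 10 UMIs. The summed lymphatic genes, which leave out Ccl21a, stood at -0.16 (-0.59 to 0.24) in region 2 and 1.04 (0.54 to 1.52) outside it. This split was not kept when the spots were chosen on other UMIs than those read, as given further on.

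Inside region 2 the other cell markers also differed from the whole-section picture. Macrophage genes were lower in the vessel-rich spots (log2 -0.37, -0.46 to -0.29), and 5 of 29 spots lay above the median of the other spots of the region. Fibroblast matrix genes stood at -0.26 (-0.28 to -0.25), with Lum, a small collagen-binding proteoglycan, at -0.53 (-0.67 to -0.38) and Col3a1 at -0.40 (-0.44 to -0.36). Muscle genes (0.02, -0.01 to 0.06) and epidermis genes (0.19, 0.09 to 0.29) were no longer lower, and neither were Krt77 (0.02, -0.30 to 0.32) and Elovl4 (-0.06, -0.51 to 0.37). Myh8 and Myl4 stayed lower at -2.10 (-3.78 to -0.80) and -1.82 (-2.45 to -1.25). Red cell genes, near 0 over the section, stood at 0.55 (0.24 to 0.85), led by Hbb-bs, the adult beta-globin, at 0.82 (0.36 to 1.27), but at 0.07 (-0.44 to 0.56) when spots were chosen on 1 random part of the UMIs and read in the other. Clec3b, the plasminogen-binding protein tetranectin and 1 of 9 candidate genes of the study, stood at -1.29 (-2.09 to -0.57) in region 2. Outside it, Clec3b stood at 0.19 (-0.42 to 0.76). Itgbl1, another candidate, stood at -0.74 (-1.23 to -0.28) and -0.10 (-0.80 to 0.53). Summed, the 9 candidates stood at -0.31 (-0.51 to -0.12) in region 2 and 0.35 (0.15 to 0.54) outside it. Over the whole section they stood at -0.04 (-0.18 to 0.09).

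A further reading separated the choice of spots from their description. Each UMI was assigned at random to 1 of 2 parts of equal expected size, the top 15% of spots were chosen on the first part, and the second was read. The score genes were 2.05-fold higher in the unused part (log2 1.03, 0.85 to 1.21), and 42 of the 72 spots were the same as in the full choice. In region 2, where 21 spots were chosen, the ratio was 2.80-fold (log2 1.49, 1.25 to 1.72). Outside region 2, where 51 spots were chosen, it was 1.09-fold (log2 0.12, -0.24 to 0.46), and in region 1 alone 1.07-fold (log2 0.09, -0.32 to 0.48). Endothelial genes outside the score gave 0.83 (0.69 to 0.97) in region 2 and 0.16 (-0.02 to 0.33) outside it. Lymphatic genes without Ccl21a gave 0.32 (-0.30 to 0.90) in region 2 and 0.53 (-0.28 to 1.26) outside it, intervals that both included 0. Because region 2 was also the deepest, the reading was repeated with every spot of 6000 or more UMIs thinned to 6000. The score genes then stood at 1.18 (0.77 to 1.58) in region 2 and 0.31 (-0.15 to 0.74) outside, with interval bounds that nearly met. Endothelial genes outside the score stood at 0.63 (0.39 to 0.87) and -0.19 (-0.44 to 0.06). These values rest on 1 random thinning and 1 random split. Outside region 2, 196 of 373 kept spots had 6000 or more UMIs, so the shallower spots there were not read. The part of depth in the difference between regions was not tested.

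**Figure D4:**
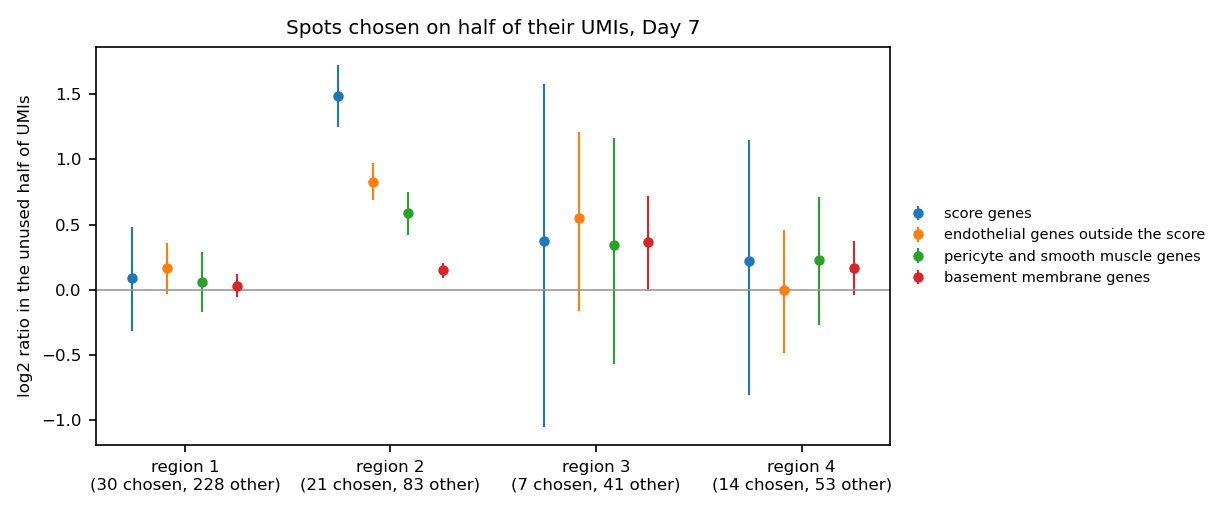
Log2 ratio (chosen over other spots) in the part of the UMIs that did not choose the spots, for 4 gene lists in 4 regions of Day 7. Points are ratios of pooled CPM and bars 95% counting intervals; in region 2 all 4 lists lie above 0, with the score genes at 1.49, and in region 1 all 4 intervals include 0.

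The same rule was applied to the Day 3 and Day 14 sections. Day 3 gave 39 of 258 kept spots with scores from 1096 CPM upward and a median of 9 score UMIs, and Day 14 gave 94 of 625 with scores from 427 CPM upward and a median of 3. On Day 3, 14 of 19 endothelial genes outside the score were at least 1.5-fold higher, beside 15% of all genes, and none lower, beside 17.2%. Their summed log2 ratio was 1.32 there, against 0.59 on Day 7 and 0.38 on Day 14. On Day 14, 10 of 30 were higher, beside 6.32% of all genes, and 2 lower, beside 17%. In the unused part of the UMIs the score genes were 4.84-fold (Day 3), 2.05-fold (Day 7) and 1.87-fold (Day 14) higher in the chosen spots.

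Gene groups beside the endothelium differed between the days, with values given side by side and no test. Pericyte genes had summed log2 ratios of 0.45, 0.47 and 0.38 on Day 3, Day 7 and Day 14, and smooth muscle genes -0.02, 0.42 and 0.51. Of the 6 pericyte genes counted on Day 3, 3 were at least 1.5-fold higher and 2 lower, with a median log2 ratio of 0.07. The shares over all genes of Day 3 were 15% and 17.2%. In the unused part of the UMIs, pericyte and smooth muscle genes together gave 0.11 (-0.21 to 0.42), 0.43 (0.31 to 0.55) and 0.26 (0.07 to 0.44) on the 3 days. Pdgfb stood at 2.67, 1.10 and -0.25, and Col18a1 at 1.62, 1.29 and 0.21. Angpt2, a tip cell signal, stood at 2.16 on Day 3 and -0.10 on Day 7. Red cell genes stood at 0.35, -0.07 and 0.76, and muscle genes at -0.39, -0.37 and 0.40. Vessel-rich spots of Day 14 had a lower median depth (4107 UMIs) than the other spots of that day (5887), and the part of this in the Day 14 values was not tested.

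**Figure D5:**
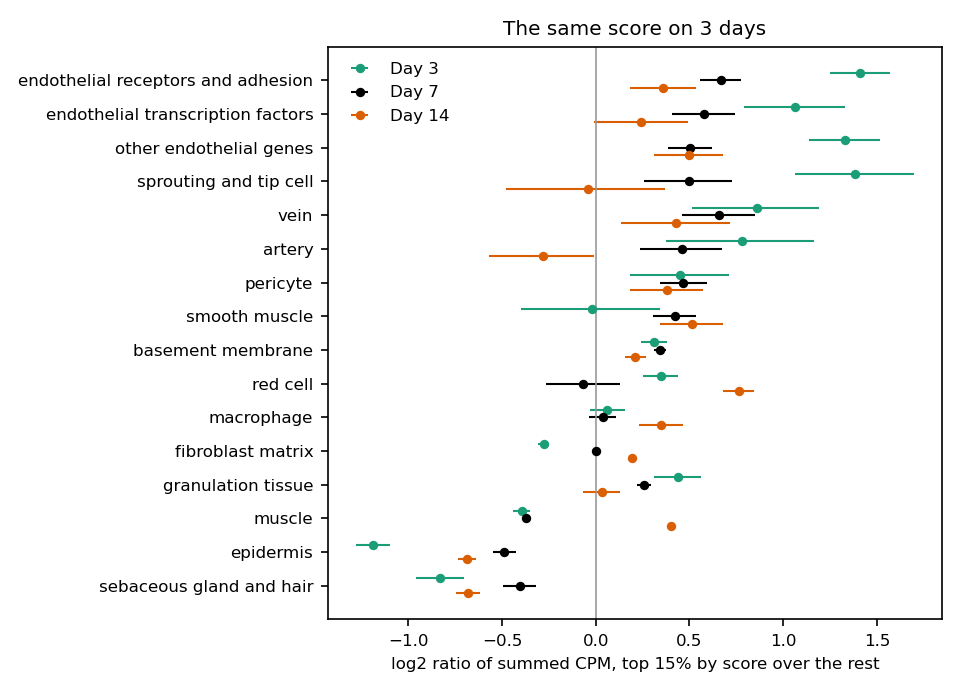
Log2 ratio of summed CPM, top 15% of kept spots by score over the rest, for 16 gene lists on Day 3 (39 spots), Day 7 (72) and Day 14 (94). Points are pooled ratios and bars 95% counting intervals from 1 section per day; the endothelial receptor list stands at 1.41, 0.67 and 0.36.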

How the data were processed

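Spatial RNA profiles (10x Visium) of wounded mouse skin were used as deposited, with 1 section each for Day 3, Day 7 and Day 14. The authors made the deposited counts (UMIs per gene and spot, not normalized) with Space Ranger 1.3.0, per the submitters' processing notes, which also list mm10. They chose which spots were marked as tissue. Marked spots with 2000 or more UMIs were kept. The members, gene lists and tests were chosen with earlier results of these data known. UMIs were pooled over spots, the 8 score genes were left out of numerators and totals, and CPM ratios were given an exact conditional binomial interval (scipy 1.17.1). Sums have exact Poisson intervals. Genes with 50 or more UMIs over the kept spots were counted at 1.5-fold. The interval was tested on simulated data. Regions came from k-means (scikit-learn 1.9.0, 5 centres, 20 starts) on 20 principal components of log counts of the 2000 most variable genes, listed genes left out. TMM (edgeR 4.0.16) and size factors (DESeq2 1.42.0) were used only as other scalings of the 2 pooled profiles. Doublet calling was not run on spots. Named genes were the 4 highest and 2 lowest of each list, the 15 highest and 10 lowest of all genes by whichever end of the interval was closer to 0, the 9 candidate genes of the study, and list genes that lead in regions. Prox1, Lyve1 and Col3a1 were named after their values were seen. Gene positions follow GRCm38.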

Additional observations from a re-analysis of the deposited data

Results flagged for a closer look

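On Day 7, 858 spots that the authors had not marked as tissue held 2000 or more UMIs, and 94 of them reached the score of the lowest vessel-rich spot. These spots were outside every comparison. Pooled, their score was 460 CPM, beside 599 CPM in the 477 kept spots, and the highest of them held 3483 CPM. Marking followed a region of interest, so unmarked spots can lie over tissue.

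Notch1, a Notch receptor of endothelium and keratinocytes, was higher in the Day 7 vessel-rich spots (log2 0.73) and lower in the spots chosen the same way on Day 14 (log2 -0.73). Ube2c, a gene of mitosis, was likewise higher on Day 7 (log2 0.90) and lower on Day 14 (log2 -0.78). Both pairs have intervals on opposite sides of 0 for counting error, with 1 section per day. No test of the difference between the days was made.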

How the results depend on the processing

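No paired analysis was possible because each day had 1 section and no replicate. The limits of the main values are the few score UMIs per spot, a single section, and 1.5-fold counts that grow as UMIs become fewer. Main counts were 585 genes higher, 868 lower, 22 endothelial, 5 pericyte and smooth muscle and 7 basement membrane genes higher, 54 spots beside another, and 14 (Day 3) and 10 (Day 14) endothelial genes. Counts that differed by more than 1.5 times were as follows. Requiring 20, 100 or 1 UMIs of a gene gave 1070, 263 and 2358 higher and 1535, 420 and 4516 lower genes, 26, 6 and 38 endothelial genes on Day 3 and 17, 2 and 19 on Day 14; 100 UMIs left 14 endothelial and 2 pericyte and smooth muscle genes on Day 7. A fold of 2 gave 74 higher and 230 lower genes, and 5 endothelial, 2 pericyte and smooth muscle, 1 basement membrane and, on Day 14, 6 endothelial genes. Choosing on 1 random part of the UMIs and reading the other gave 925 and 1424, and thinning to 2000 UMIs 1639 and 2173, higher and lower genes. Mean of spot CPM, which weights shallow spots equally, gave 12 endothelial, 3 pericyte and smooth muscle and 4 basement membrane genes. The top 10% of spots gave 10 pericyte and smooth muscle genes, 34 adjacent spots and 16 endothelial genes on Day 14, and the top 20% gave 3 pericyte and smooth muscle and 4 basement membrane genes. The Mantel-Haenszel ratio over 5 or 6 regions gave 4 basement membrane genes. The score without Cdh5 gave 3 pericyte and smooth muscle genes, without Kdr 3 and without Esam, Cldn5 or Plvap 4 basement membrane genes. A 4000-UMI minimum of a spot gave 4 endothelial genes on Day 14. The cause of these changes was not tested, other than the smaller or larger number of genes and UMIs read. TMM and size factors shifted all log2 ratios by -0.04 and moved no count by more than 1.5 times. Among the named genes with a UMI in vessel-rich spots, log2 ratios changed sign after thinning to 2000 UMIs for Sox17 (-0.97), Il1r2 (0.91), Cd55 (0.034), Acvr1c (0.49), Reln (-0.31), Pdgfd (-0.83), Meox2 (-0.68), Sox7 (-0.092) and Notch4 (-0.41), under mean of spot CPM for Acvr1c (0.20) and Sox7 (-0.062), and with the UMIs in 2 parts for Mcpt4 (0.29), Myh11 (-0.064) and Mbp (0.14).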

Other observations

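Genes of the cell cycle had a summed log2 ratio of 0.25 (0.07 to 0.42) in the Day 7 vessel-rich spots over the other spots. Of the 10 genes, Ube2c was at least 1.5-fold higher, beside 6.24% of all genes. Mki67, the usual proliferation marker, stood at -0.42 (-1.20 to 0.27) on 19 UMIs. Schwann cell genes stood at -0.30 (-0.53 to -0.08) over the whole section. In region 2 and outside it they stood at -0.11 (-0.43 to 0.20) and -0.23 (-0.59 to 0.11). With spots chosen on 1 random part of the UMIs and read in the other, they stood at -0.16 (-0.48 to 0.15). Mbp, a myelin protein, had 6 UMIs in vessel-rich spots and 106 in the other spots (log2 -1.66, -3.14 to -0.49), but stood at 0.14 with the UMIs in 2 parts.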
